A study of Drosophila melanogaster with 44 samples.

Results

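Gene expression was compared between ovaries of Drosophila melanogaster females that lacked the N variant of the insulator protein Mod(mdg4) and ovaries of wild-type females. Every gene with more than 1 CPM (counts scaled to 1000000 per library) in at least 3 of the 6 ovary libraries was included, which kept 7934 of the 17807 genes listed, and 6 of the 44 samples of the series were used. The 3 mutant libraries came from y1 w1118 flies that were homozygous for Mod(mdg4) RN1-2, and the 3 wild-type libraries came from y1 w1118 flies without that allele. Both groups were thus yellow and white, untreated, and kept at 25 °C, and the age of the females was not given. The allele was made with Cas9 from the nanos promoter and a guide RNA, each mutant line was started from a single male, and the allele lacks 2 bases within the exon that only variant N uses. Whether the rest of the genome had the same origin in both groups was not stated. Poly(A)+ RNA of whole ovaries was sequenced. In bulk RNA of this kind, fewer cells of a type and less RNA per cell cannot be told apart, and this holds for every cell type and stage below.

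Mod(mdg4) is a BTB domain protein whose many variants share their first exons and differ in a last exon, which encodes a zinc finger of the FLYWCH type in most of them. Its variants are known from insulator complexes, from position effect variegation and from the pairing of homologues in male meiosis. The fly ovary is a set of ovarioles in which germline stem cells divide at the tip, cystoblasts form cysts of nurse cells and 1 oocyte, and follicle cells enclose each cyst. Egg chambers then pass through numbered stages, in which the follicle cells make first yolk and vitelline membrane proteins and later the chorion of the eggshell, while nurse cells supply the oocyte with ribosomes, mitochondria and maternal mRNA.

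The libraries held between 16456288 and 20244538 counts. A count of 3 was taken as the limit of detection, corresponding to 0.144 to 0.183 CPM per library, and this limit covers counting error only. Nothing in the labels says that the 3 samples of a group came from separate cages or days, so p-values measure the spread between these samples. Wild-type replicate 1 stood apart in the genes of the latest stages. The 5 chorion genes of the X cluster summed to 1588, 2279 and 6053 CPM in mutant replicates 1 to 3 and to 3.61, 2852 and 5711 CPM in wild-type replicates 1 to 3. Results on late stages are therefore given with and without that library. Over all tested genes, log2 CPM of wild-type replicate 3 correlated at 0.949 with mutant replicate 3. With wild-type replicates 1 and 2 its correlations were 0.929 and 0.943. By this measure wild-type replicate 3 was closer to a mutant library than to its own group.

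The targeted gene could be checked only at the gene level, which cannot show a frameshift. The coding part of the N exon spans 533 bases on 3R (21372548 to 21373080, minus strand), and 22 coding transcripts of the gene are annotated. mod(mdg4) as a whole (FBgn0002781; 3R, 21350846 to 21377401) had 468, 601 and 684 CPM in the mutant and 669, 749 and 927 CPM in the wild type. The groups overlapped, and the log2 fold change of mutant over wild type was -0.42 (SE 0.18, adjusted p = 0.13 by edgeR's quasi-likelihood test with Benjamini-Hochberg adjustment). With the replicate number as a block the adjusted p was 0.020.

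Of the 7934 genes, 1438 (18.1%) were called DEGs, that is, had an adjusted p under 0.05 in edgeR's quasi-likelihood test. Higher expression in the mutant was called for 929 genes (11.7%) and lower expression for 509 (6.42%). These shares are the background for all gene lists below. The median log2 fold change was -0.01 over all genes, 0.64 over those called higher and -0.54 over those called lower. At least a 2-fold change was seen for 254 of the genes called higher and for 71 of those called lower. The 2 groups of libraries did not overlap for 3589 genes (45.2%). Same-numbered mutant and wild-type libraries deviated together, and the fit that added the replicate number as a block gave 2279 genes (28.7%), with 1172 higher and 1107 lower, of which 1366 were shared with the 1438 in the same direction. The count rested on single libraries. It was 173 without mutant replicate 2 and 177 without wild-type replicate 2, between 811 and 926 without mutant replicate 1, wild-type replicate 3 or wild-type replicate 1 (8.22% higher and 3.64% lower in the last of these), and 1446 without mutant replicate 3. This held for the lists as well. Of the 37 lists below with at least 3 called members, 36 had over 1.5 times fewer called without mutant replicate 2 and 36 without wild-type replicate 2, with meiosis the exception in both, against 18 without wild-type replicate 1 and 6 without mutant replicate 3. All 1438 genes kept the sign of their change in each of these 6 fits that could be tested. The genes were chosen on all 6 libraries and each fit reuses most of them, so the kept sign is no separate support.

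The largest increases were in genes that were nearly silent in wild-type ovary. Dscam4 (FBgn0263219; 3L, 8238647 to 8282398), of the Dscam family of immunoglobulin cell surface receptors, had 70.7, 57.4 and 46.5 CPM in the mutant. In the wild type it stayed at or under the limit of 3 counts in every library, at 0.183, 0.0597 and 0.108 CPM. The mutant was at least 333.8-fold higher against that limit (edgeR adjusted p = 0.00032). CG17470 was at 15.9, 25.8 and 14.4 CPM in the mutant and had no counts in the wild type, at least 107-fold higher against the limit (edgeR adjusted p = 0.0042). CG16798, CG42857, Neto and FBgn0037726 were also at or under the limit in each wild-type library. Neto, which encodes an auxiliary subunit of glutamate receptors, had 11.0, 6.68 and 5.38 CPM in the mutant and was at least 44.1-fold higher (edgeR adjusted p = 0.0033). CG42857 was uneven, with 14.9, 6.57 and 1.25 CPM, and its call was lost without wild-type replicate 2 (adjusted p = 0.077) or 3 (0.051). In all, 10 DEGs had at most 3 counts in every wild-type library.

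The other 4 of the 10 largest increases were CG46312, CG32318, CG12708 and CG32625. CG46312 had 72.2, 60.9 and 75.1 CPM in the mutant and 0, 0.298 and 0 CPM in the wild type (log2 fold change 9.39, SE 0.56, edgeR adjusted p = 0.00089). Its span lies within that of eIF5 on the same strand, so its counts depend on how reads were divided between the 2 genes. eIF5 itself had a log2 fold change of 0.20 and was not called. CG32625 had 36.3, 54.0 and 64.8 CPM in the mutant and 1.34, 0.895 and 1.61 CPM in the wild type (log2 fold change 5.32, SE 0.32, edgeR adjusted p = 0.00089). It was called in all 6 fits with a library left out. In cultured ovarian somatic cells with control EGFP KD, Dscam4 had a mean of 53.7 CPM and CG46312 of 40.7 CPM. The rest of the 10 largest increases had means between 0 and 6.49 CPM there. The part of strain background in these differences was not tested.

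The largest decreases were in genes expressed in wild-type ovary and close to the limit of detection in the mutant. CG12592 had 0.408, 0.841 and 0.480 CPM in the mutant and 35.9, 37.4 and 33.5 CPM in the wild type (log2 fold change -5.93, SE 0.28, edgeR adjusted p = 0.00064). Hsc70-2, a constitutive member of the Hsp70 family of chaperones, had 0.233, 0.578 and 0.480 CPM in the mutant against 36.7, 23.7 and 26.8 CPM in the wild type (-6.04, SE 0.37, edgeR adjusted p = 0.00091). CG7133 had 1.52, 0.894 and 0.336 CPM in the mutant and 53.7, 54.8 and 46.3 CPM in the wild type. No mutant library came near a wild-type one for any of these. dachs, which encodes an unconventional myosin of the Fat signalling pathway, had 0.525, 0.315 and 0.288 CPM in the mutant and 7.64, 6.45 and 10.8 CPM in the wild type (-4.45, SE 0.41, edgeR adjusted p = 0.0041). CG5391, CG6409 and Fuca, an alpha-L-fucosidase, varied more among libraries. Each lost its call without mutant replicate 2, with adjusted p of 0.061 for CG5391, 0.072 for CG6409 and 0.054 for Fuca, and CG5391 also without mutant replicate 1 (0.051). CG32641 was lower as well (log2 fold change -3.51), but its neighbour CG32640 is a closely related copy between which reads can be split, so this value is uncertain.

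A gene well expressed in the wild type, srl, was also far lower in the mutant. It is the fly member of the PGC-1 family of coactivators, which promote mitochondrial gene expression. srl (FBgn0037248; 3R, 4422483 to 4429335) had 77.3, 45.1 and 38.7 CPM in the mutant and 361, 467 and 494 CPM in the wild type. The highest mutant library was far under the lowest wild-type one. The log2 fold change was -3.04 (SE 0.29, edgeR adjusted p = 0.0042), and srl was called in all 6 fits with a library left out. Tsf1, the iron carrier transferrin, had 1.17, 12.2 and 7.06 CPM in the mutant and 62.2, 130 and 37.6 CPM in the wild type (log2 fold change -3.48, SE 0.80, edgeR adjusted p = 0.032). Tsf1 is made in fat body. Of the 10 tested fat body genes, 5 had a positive and 5 a negative log2 fold change (median -0.03), and Tsf1 was the only one called. Another of these genes, apolpp, also varied among libraries. apolpp, the lipid carrier apolipophorin, had 5.42, 42.4 and 24.6 CPM in the mutant and 97.5, 246 and 14.2 CPM in the wild type. The part of fat body attached to the ovary in the difference of Tsf1 was not tested. The call of Tsf1 was lost without mutant replicate 2 (adjusted p = 0.069) or 3 (0.065) and without wild-type replicate 1 (0.052) or 2 (0.10).

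At the tip of the ovariole, bam and tut were higher in the mutant. Of the 16 tested genes of germline stem cells and cystoblasts, 4 were called higher and 3 lower, with a median log2 fold change of 0.08. bam, the switch that turns a stem cell daughter into a cystoblast, had 143, 145 and 133 CPM in the mutant and 34.1, 41.7 and 50.0 CPM in the wild type. The groups were widely separated. The log2 fold change of bam (3R, 25243039 to 25245109) was 1.74 (SE 0.14, edgeR adjusted p = 0.0033), and it was called in all 6 fits with a library left out. tut (3L, 8209577 to 8210743), whose product is known from male germ cells as a partner of Bam and Bgcn, had 28.7, 27.9 and 16.3 CPM in the mutant and 1.71, 0.656 and 3.17 CPM in the wild type (log2 fold change 3.70, SE 0.56, edgeR adjusted p = 0.011). Its call was lost without mutant replicate 2 (0.054). tut and Dscam4 lie close to each other on 3L.

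bgcn, which encodes the other partner of Bam, was scarce, at 1.34, 2.84 and 2.50 CPM in the mutant and 0.733, 0.537 and 0.646 CPM in the wild type. It was called (log2 fold change 1.79, SE 0.43, edgeR adjusted p = 0.035), but its adjusted p was 0.055 with the block and between 0.062 and 0.12 in the 3 fits with a wild-type library left out, the only ones in which it was tested. zpg, the gap junction protein that germ cells need, had 456, 407 and 403 CPM in the mutant and 353, 297 and 273 CPM in the wild type (0.46, edgeR adjusted p = 0.040). Among 6 fits, zpg was called only without wild-type replicate 1, and its adjusted p reached 0.14 without wild-type replicate 2. On the other side, pum, a translational repressor that maintains stem cells, had 328, 338 and 371 CPM in the mutant and 452, 473 and 503 CPM in the wild type (-0.46, SE 0.08, edgeR adjusted p = 0.017). The adjusted p of pum was 0.081 and 0.077 without mutant and wild-type replicate 2. vas, the nuage helicase Vasa, had 166, 166 and 138 CPM in the mutant and 226, 209 and 229 CPM in the wild type (-0.50, edgeR adjusted p = 0.022), with an adjusted p of 0.077 without mutant replicate 2 or wild-type replicate 2, 0.052 without wild-type replicate 1 and 0.056 without wild-type replicate 3. The gene solo lies within vas and shares its first exons, so reads of the 2 may be mixed.

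The BMP pathway keeps germline stem cells undifferentiated and later acts in follicle cells. Its inhibitory Smad gene, Dad, is itself switched on by BMP signals and was among the clearest DEGs of the comparison. Dad (FBgn0020493; 3R, 17054007 to 17070408) had 76.2, 83.6 and 86.9 CPM in the mutant and 10.4, 14.7 and 12.7 CPM in the wild type, so the lowest mutant library was several times the highest wild-type one. The log2 fold change was 2.71 (SE 0.14, edgeR adjusted p = 0.00068), and all 6 fits with a library left out called it. Of the 18 tested BMP pathway genes, Dad and magu, a secreted BMP modulator, were called, and the block fit called 3 higher and 2 lower. magu had 150, 181 and 174 CPM in the mutant and 103, 118 and 122 CPM in the wild type (0.56, SE 0.11, edgeR adjusted p = 0.022), and lost its call without mutant replicate 2 (0.087) or wild-type replicate 2 (0.078). The median of the list was 0.06. Of the 9 tested markers of the escort and niche cells that surround the stem cells, 7 had a positive log2 fold change (median 0.35), and the 2 with a negative one, fax and wun2, were those called. fax and wun2 were lower, at -0.34 and -0.47. Neither was called without mutant replicate 2 (0.11 and 0.097), wild-type replicate 2 (0.12 and 0.097) or wild-type replicate 1 (0.056 and 0.052). fax was also not called without wild-type replicate 3 (0.081) or mutant replicate 1 (0.066). The marker hh was under the filter in these ovaries. ptc, the Hedgehog receptor, had 9.16, 6.10 and 3.17 CPM in the mutant and 3.06, 1.61 and 1.61 CPM in the wild type (log2 fold change 1.55, edgeR adjusted p = 0.071, 0.035 with the block).

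Of the 19 tested genes of recombination and the synaptonemal complex, 3 were called lower and none higher, and the median was -0.17. The block fit also called corolla, of the synaptonemal complex, higher (0.70, edgeR adjusted p = 0.070, 0.041 with the block). c(3)G, the transverse filament protein that zips homologues together, had 27.4, 28.0 and 29.7 CPM in the mutant and 76.8, 66.7 and 49.3 CPM in the wild type (log2 fold change -1.18, SE 0.16, edgeR adjusted p = 0.0098). Its call was lost narrowly without mutant replicate 2 (0.054) or wild-type replicate 2 (0.052). mei-217 had 14.3, 14.7 and 17.9 CPM in the mutant and 34.5, 40.2 and 40.7 CPM in the wild type (-1.30, SE 0.14, edgeR adjusted p = 0.0050). mei-218 had 32.9, 37.6 and 28.0 CPM in the mutant and 60.4, 58.4 and 68.5 CPM in the wild type (-0.93, SE 0.13, edgeR adjusted p = 0.0098). mei-217 and mei-218 encode parts of the complex that promotes crossovers. Both are read from a single dicistronic transcript on X (17135985 to 17142990), so they share reads and do not count as separate results. Both were called in all 6 fits with a library left out.

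**Figure D1:**
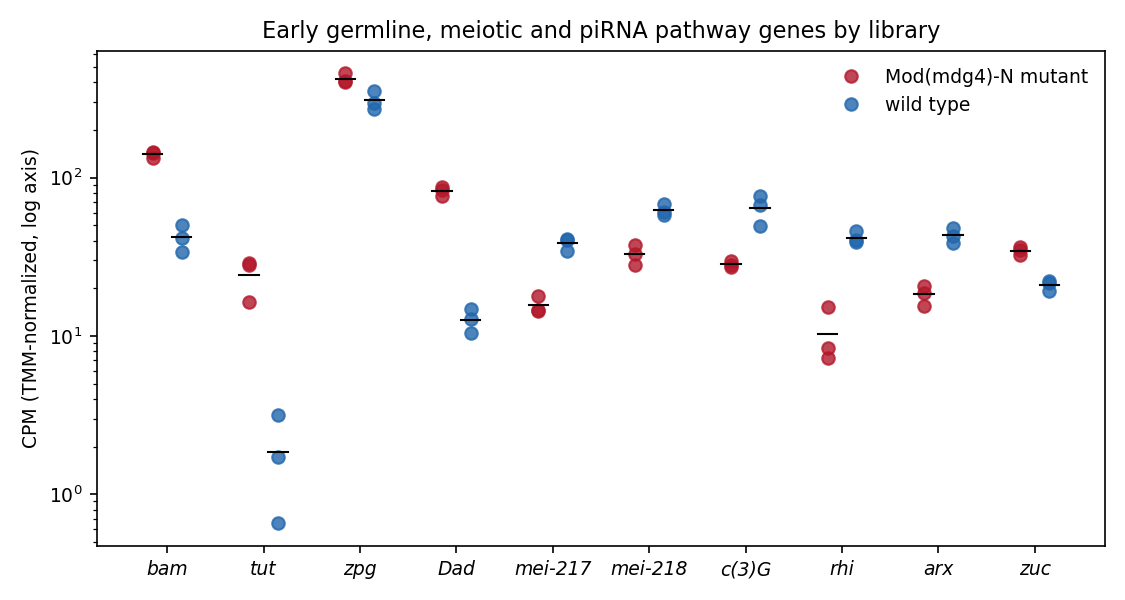
Level of 10 genes of the germline, of meiosis and of the piRNA pathway in each of the 6 ovary libraries, as CPM on a log axis. Points are single libraries, with mutant left of wild type and a bar at the mean. bam sat between 133 and 145 CPM in the mutant and between 34.1 and 50.0 CPM in the wild type, and rhi between 7.25 and 15.3 CPM in the mutant and between 39.1 and 45.7 CPM in the wild type.

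The piRNA pathway, which silences transposons in germ cells and follicle cells, moved in both directions. Of 37 tested genes, 6 were called higher and 4 lower, with a median of 0.06. rhi, the HP1 paralogue that binds dual-strand piRNA clusters, had 8.34, 7.25 and 15.3 CPM in the mutant and 45.7, 39.1 and 40.2 CPM in the wild type. No mutant library reached the lowest wild-type library. Its log2 fold change was -2.01 (SE 0.29, edgeR adjusted p = 0.010). del, whose product joins Rhino in the complex that transcribes those clusters, went the other way, with 299, 270 and 238 CPM in the mutant and 144, 181 and 137 CPM in the wild type (0.80, SE 0.14, edgeR adjusted p = 0.015). The call of del was lost without mutant replicate 2 (0.069), and that of rhi in none of the 6 fits.

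Of the other piRNA genes, arx, a factor of Piwi's nuclear silencing step, was lower. arx had 15.5, 18.8 and 20.7 CPM in the mutant and 48.2, 43.0 and 38.8 CPM in the wild type (log2 fold change -1.24, SE 0.14, edgeR adjusted p = 0.0063), and it was called in all 6 fits with a library left out. zuc, the mitochondrial nuclease that cuts piRNA precursors, was higher. zuc had 34.7, 32.3 and 36.6 CPM in the mutant and 19.3, 22.4 and 21.5 CPM in the wild type (0.71, SE 0.11, edgeR adjusted p = 0.011). Its adjusted p was 0.054 without mutant replicate 2 and 0.052 without wild-type replicate 2. moon, the cofactor that recruits transcription machinery to Rhino-bound clusters, had 43.3, 43.1 and 37.3 CPM in the mutant and 20.2, 21.9 and 31.2 CPM in the wild type (0.75, edgeR adjusted p = 0.035), and lost its call in 4 of the 6 fits, with 0.12 without wild-type replicate 2. piwi itself did not pass the test, at 0.08. With the block, 7 piRNA genes were called higher and 10 lower.

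Chromatin regulators leaned towards lower values, and more of them were called lower in the fit with the block, which assumes pairs that no label gives. Of the 19 tested genes of H3K9 methylation and heterochromatin, 17 had a negative log2 fold change, the median was -0.44, and 4 were called lower (rhi, Mi-2, ADD1 and Kdm4B). With the block 11 were called lower, against 14% of all genes. Of the 35 tested Polycomb and Trithorax group genes, 30 had a negative value and the median was -0.35, while a single gene was called lower without the block and 18 with it. That gene was Asx, a partner of the deubiquitinase that removes the Polycomb mark from H2A. Asx had 38.4, 38.0 and 47.7 CPM in the mutant and 73.6, 75.1 and 88.2 CPM in the wild type (log2 fold change -0.93, SE 0.12, edgeR adjusted p = 0.0089), with a call in all 6 fits with a library left out. Mi-2, the remodelling ATPase, had 415, 470 and 497 CPM in the mutant and 613, 607 and 660 CPM in the wild type (-0.44, edgeR adjusted p = 0.025), and its adjusted p was over the threshold in 4 of the 6 fits, up to 0.096 without mutant replicate 2.

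Insulator and architectural proteins, the class to which Mod(mdg4) belongs, were nearly even. Of 25 tested, shep was called higher and l(3)mbt lower, and the list median was -0.12. shep, an RNA-binding protein that limits gypsy insulator activity in neurons, had 424, 361 and 342 CPM in the mutant and 291, 275 and 249 CPM in the wild type (0.47, edgeR adjusted p = 0.033). l(3)mbt, which represses germline and insulator-bound genes in somatic cells, had 65.6, 88.6 and 94.2 CPM in the mutant and 118, 124 and 163 CPM in the wild type (-0.71, edgeR adjusted p = 0.041). Both were called in 1 of the 6 fits, the one without mutant replicate 3, and in the others the adjusted p reached 0.11 for shep without wild-type replicate 2 and 0.11 for l(3)mbt without mutant replicate 2. Of 9 telomere capping genes none was called by edgeR, 1 had an unadjusted p under 0.05 in the higher direction and 2 in the lower, and DESeq2 called 1 in each direction. The block fit called HipHop, cav and woc lower (-0.38, -0.25 and -0.32).

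**Figure D2:**
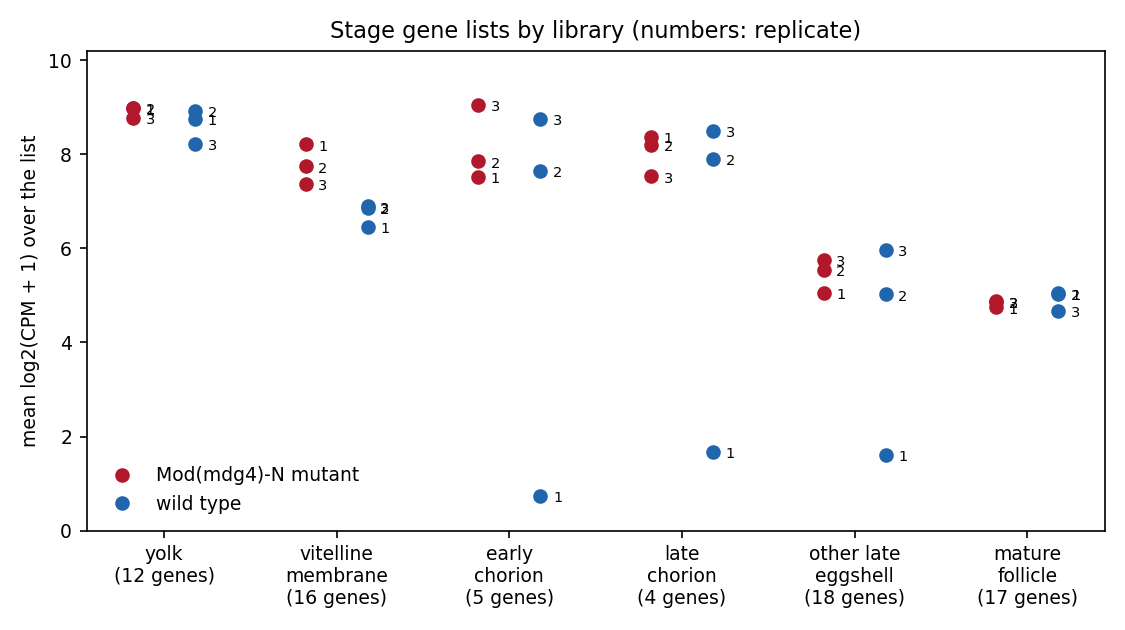
Mean log2(CPM + 1) of the tested genes of lists ordered by stage of oogenesis, 1 point per library, with the mutant left of the wild type. The vitelline membrane list was at 8.21, 7.74 and 7.38 in the mutant and 6.46, 6.87 and 6.89 in the wild type, and wild-type replicate 1 stood far under all other libraries in the chorion lists.

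Genes that egg chambers express in stages 8 to 10 were in large part higher in the mutant. Of the 16 vitelline membrane and early eggshell genes, which follicle cells express, 15 had a positive log2 fold change and 9 were called higher, where 11.7% of all genes were. The list median was 1.13. Its summed level was 20899, 14535 and 10508 CPM in mutant replicates 1 to 3 and 5821, 6805 and 6645 CPM in wild-type replicates 1 to 3. All mutant libraries were thus above all wild-type libraries, although the mutant libraries were far more spread out. Without wild-type replicate 1 the median was 1.04, with 5 genes called higher, where 8.22% of all genes were. Without wild-type replicate 2 or mutant replicate 2 the count was 0, where 138 and 124 genes were called higher in all, and it was 5 without wild-type replicate 3 or mutant replicate 1 and 8 without mutant replicate 3.

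Among the vitelline membrane genes, Vm26Aa, which encodes a structural protein of the layer, had 7089, 4732 and 3242 CPM in the mutant and 1974, 2242 and 1971 CPM in the wild type (log2 fold change 1.28, SE 0.27, edgeR adjusted p = 0.026). Its neighbour Vm26Ab, of the same family, had 2923, 1917 and 1370.0 CPM in the mutant and 816, 855 and 650 CPM in the wild type (1.42, SE 0.28, edgeR adjusted p = 0.022). psd (palisade), which helps to assemble the membrane, had 408, 284 and 198 CPM in the mutant and 96.7, 108 and 116 CPM in the wild type (1.47, SE 0.25, edgeR adjusted p = 0.015). The 3 genes lie side by side on 2L (5957004 to 5964951), and in each of them mutant replicate 1 was the highest library. dec, whose products enter both the vitelline membrane and the chorion, had 4206, 2780.4 and 2032 CPM in the mutant and 392, 895 and 1365 CPM in the wild type (1.77, SE 0.48, edgeR adjusted p = 0.048). dec was not called with the block (0.073) or without wild-type replicate 1 (0.055), nor without mutant replicate 1 (0.12), mutant replicate 2 (0.12) or wild-type replicate 2 (0.13). The adjusted p was 0.088 for Vm26Aa, 0.072 for Vm26Ab and 0.061 for psd without mutant replicate 2. Without wild-type replicate 2 it was 0.092, 0.080 and 0.071 in that order, and without wild-type replicate 3 it was 0.069 for Vm26Aa and 0.057 for Vm26Ab. Vm26Aa also lost its call without wild-type replicate 1 (0.062). wbl, a Windbeutel chaperone that follicle cells need for the dorsoventral cue, was called at 1.44 (edgeR adjusted p = 0.022), but not without mutant replicate 2 (0.072), wild-type replicate 2 (0.089) or wild-type replicate 3 (0.056).

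Genes of the later eggshell did not pass the test with all 6 libraries. Of the 5 early chorion genes of the X cluster and the 4 late chorion genes of the 3L cluster, edgeR called none, 0 had an unadjusted p under 0.05, and DESeq2 called none. Cp36, the major early chorion protein, had 508, 828 and 2412 CPM in the mutant and 0.856, 1142 and 1991 CPM in the wild type. Its log2 fold change was 0.26 (SE 1.63) over all libraries and -0.33 without wild-type replicate 1, the library that hardly expressed it. Cp15, of the late cluster, had 1411, 2503 and 2223 CPM in the mutant and 29.0, 1414 and 1502 CPM in the wild type (1.06, SE 1.09, edgeR adjusted p = 0.49). The median of the early chorion list was 0.26 with wild-type replicate 1 and -0.33 without it, and that of the late list was -0.15 with it and -0.73 without it. Without that library the early chorion genes Cp7Fb (log2 fold change 1.44) and Cp7Fc (1.49) were called higher. The block fit called no gene of either list, but its medians were 1.45 for the early list and 1.47 for the late one. On the log2(TPM + 1) scale they were 2.72 and 2.13, so these lists have no settled direction. Among 18 other late eggshell genes none was called by edgeR or DESeq2, none had an unadjusted p under 0.05, and the median was 0.33, or -0.18 without wild-type replicate 1 and 1.17 with the block. The block fit called Cht6 higher (edgeR adjusted p = 0.048), and the fit without wild-type replicate 1 called CG31928 lower (0.019).

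Yolk protein genes, which follicle cells and fat body both express, were higher in the mean but overlapped between groups, apart from Yp3. Yp3 had 1828, 1946 and 1233.7 CPM in the mutant and 625, 859 and 466 CPM in the wild type (log2 fold change 1.36, SE 0.27, edgeR adjusted p = 0.022). It was not called without mutant replicate 1 (0.058), mutant replicate 2 (0.085) or wild-type replicate 1 (0.052). Yp1 had 5770, 4541 and 3606 CPM in the mutant and 3200, 3798 and 1381 CPM in the wild type (0.73, SE 0.37, edgeR adjusted p = 0.19). Yp2 was similar in this respect, with a log2 fold change of 0.78 and an edgeR adjusted p of 0.17. Of the 12 genes of yolk proteins and their uptake, 11 had a positive value, the median was 0.27, 1 was called higher, and the block fit called 3.

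Ecdysone, made by the ovary itself, acts in the same middle stages. Of the 21 tested genes of its synthesis and response, 5 were called higher (7 with the block) and the list median was 0.74. br, which encodes the Broad transcription factors that pattern the dorsal appendages, had 62.9, 39.6 and 36.8 CPM in the mutant and 24.4, 15.5 and 19.2 CPM in the wild type (log2 fold change 1.24, SE 0.26, edgeR adjusted p = 0.024). Eip78C and Hr3, nuclear receptors that ecdysone induces, were scarcer. Eip78C had 3.73, 3.47 and 2.40 CPM in the mutant and 0.122, 0.418 and 0.807 CPM in the wild type (2.80, SE 0.63, edgeR adjusted p = 0.030). Hr3 had 13.4, 6.20 and 5.86 CPM in the mutant and 1.41, 1.73 and 3.50 CPM in the wild type (1.93, SE 0.51, edgeR adjusted p = 0.045), and was not called with the block (0.063). shd, the enzyme of the last step to active hormone, was called at 1.37 (edgeR adjusted p = 0.049) but in none of the 6 fits with a library left out, where its adjusted p was between 0.059 and 0.12. None of the 5 was called without mutant or wild-type replicate 2, with br at 0.069 and 0.093 and Hr3 at 0.096 and 0.14. br was also not called without wild-type replicate 3 (0.063), nor Hr3 without wild-type replicate 1 (0.090) or mutant replicate 1 (0.11). Eip78C was under the filter, and so not tested, in the fits without a mutant library. It was called without wild-type replicate 1 (0.040) or 3 (0.029), but not without wild-type replicate 2 (0.10).

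Other follicle cell groups had few called genes each. Of the 13 tested genes of stretched cells, centripetal cells and dorsal appendage patterning, Dad, br and aos were called higher, and 11 had a positive value (median 0.50). aos, an inhibitory ligand of the EGF receptor, had 9.62, 10.5 and 8.16 CPM in the mutant and 5.68, 4.18 and 5.11 CPM in the wild type (log2 fold change 0.92, edgeR adjusted p = 0.044). Its adjusted p was 0.057 with the block and between 0.055 and 0.15 in the 6 fits with a library left out. Of the 17 tested genes of follicle cell identity, da and zfh1 were called lower, at -0.66 and -0.61, and the median was 0.09. The defining marker tj had 182, 106 and 90.4 CPM in the mutant and 78.1, 87.5 and 64.7 CPM in the wild type (0.71, edgeR adjusted p = 0.10). Of the 13 tested border cell and JAK-STAT genes, hop, the Janus kinase of the fly, was called lower, at -0.64, and the block fit also called Ptp61F, dome and par-1 lower. Without mutant replicate 2 the adjusted p was 0.088 for da, 0.085 for zfh1 and 0.099 for hop, and without wild-type replicate 2 it was 0.091, 0.075 and 0.089. hop was also not called without wild-type replicate 1 (0.0504) or 3 (0.060), nor zfh1 without mutant replicate 1 (0.051). The markers slbo of border cells and upd1 of polar cells were under the filter.

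In mature follicle cells, 1 of 17 tested genes of late identity and ovulation was called (shd), and the median was -0.07. Without wild-type replicate 1 the median was 0.10 and 0 genes were called, and with the block the median was 0.02. This list thus has no settled direction. Oamb and Octbeta2R encode octopamine receptors that act in ovulation. Oamb had 4.02, 9.94 and 13.9 CPM in the mutant and 12.2, 22.0 and 18.6 CPM in the wild type (log2 fold change -0.92, edgeR adjusted p = 0.19, 0.049 with the block). Octbeta2R had 1.46, 2.68 and 5.96 CPM in the mutant and 5.38, 8.77 and 13.2 CPM in the wild type (-1.43, edgeR adjusted p = 0.12, 0.024 with the block). In both genes the groups overlapped, since mutant replicate 3 was above wild-type replicate 1. Without wild-type replicate 1 the edgeR adjusted p was 0.15 for Oamb and 0.10 for Octbeta2R.

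Among maternal mRNAs of the nurse cells and the oocyte, the share called higher was near that of all genes. osk, whose product seeds the germ plasm, had 2262, 2074 and 1788 CPM in the mutant and 1894, 1488 and 1745 CPM in the wild type (log2 fold change 0.26, edgeR adjusted p = 0.21), and grk, the ligand of the oocyte for the follicle cells, had a log2 fold change of 0.24. Of the 26 genes of localized mRNAs and their binding proteins, 3 were called higher (Hrb27C, sqd and tud) and 5 lower (bcd, capu, egl, pgc and vas), with a median of -0.01. These were 11.5% and 19.2% of the list, against 11.7% and 6.42% of all genes. The block fit called 5 in each direction. bcd, the anterior determinant, had 81.1, 99.2 and 121 CPM in the mutant and 137, 151 and 167 CPM in the wild type (-0.60, SE 0.16, edgeR adjusted p = 0.045). pgc, which represses transcription in primordial germ cells, had 165, 168 and 177 CPM in the mutant and 224, 251 and 258 CPM in the wild type (-0.53, SE 0.08, edgeR adjusted p = 0.013). Of the 24 genes of egg activation and the maternal program, 22 had a negative value, 3 were called lower without the block and 10 with it (median -0.24). zld, the factor that opens the zygotic genome, had 152, 178 and 199 CPM in the mutant and 267, 266 and 311 CPM in the wild type (-0.67, SE 0.12, edgeR adjusted p = 0.019). In the fit without mutant replicate 2 the adjusted p was 0.13 for bcd, 0.066 for pgc and 0.071 for zld, and without wild-type replicate 2 it was 0.12, 0.064 and 0.062. bcd was called in only 1 of the 6 fits. It was also lost without wild-type replicate 1 (0.058) or 3 (0.093) and without mutant replicate 1 (0.079).

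In several lists of the growth machinery nearly all members shared a sign. Ribosome biogenesis factors build ribosomes in the nucleolus. Of 38 tested, 37 had a positive log2 fold change and 28 were called higher (29 with the block), where 11.7% of all genes were, and the median was 0.47. Between fits with a library left out the median stayed between 0.44 and 0.54. The number called was 3 without wild-type replicate 2, 8 without mutant replicate 2, and between 17 and 25 otherwise. NHP2, a core protein of the H/ACA particles that guide pseudouridylation, had 276, 225 and 211 CPM in the mutant and 110, 103 and 129 CPM in the wild type (log2 fold change 1.06, SE 0.14, edgeR adjusted p = 0.0086). Nop56, a core protein of the C/D particles that guide methylation of rRNA, had 672, 546 and 512 CPM in the mutant and 317, 275 and 315 CPM in the wild type (0.93, SE 0.12, edgeR adjusted p = 0.0089). nclb, a nucleolar protein needed for rRNA synthesis in germ cells, had 190, 155 and 122.9 CPM in the mutant and 78.2, 65.2 and 70.5 CPM in the wild type (1.13, SE 0.17, edgeR adjusted p = 0.011). The mutant and wild-type libraries were well apart in all 3 genes. Nop56 and nclb lost their calls without wild-type replicate 2 (0.052 and 0.059), and nclb also without mutant replicate 2 (0.055). Polr1A, the largest subunit of RNA polymerase I, had 331, 265 and 243 CPM in the mutant and 166, 137 and 125 CPM in the wild type (0.97, SE 0.16, edgeR adjusted p = 0.013), with 0.058 and 0.069 without mutant and wild-type replicate 2.

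Many ribosome biogenesis genes carry an E-box, the sequence that Myc and its partner Max are known to bind, and the sites of 5 members of the list are shown because most members of the list held one near the start. The windows are 30 bases of the Release 6 genome as held by RefSeq, read 5′ to 3′ on the strand of the gene, and capitals mark CACGTG.
NHP2: ggtcacactgaaCACGTGtttcgaacaaaa
Nop56: acttgaagtaagCACGTGggaaaacaactg
Polr1B: gattccaaacaaCACGTGcgaaggaaggca
Nnp-1: atcgaacggcaaCACGTGcggtcgtgccgt
Nmd3: tacacctatacgCACGTGtttacaaatttg
NHP2's window lies at chr3L:14802132-14802161 on the minus strand, that of Nop56 at chr3R:22421023-22421052 on the minus strand, that of Polr1B at chr2L:404302-404331 on the plus strand, that of Nnp-1 at chr2L:13366138-13366167 on the minus strand and that of Nmd3 at chrX:2184618-2184647 on the minus strand. All 5 motifs lie downstream of the annotated transcript start.

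The motif was searched from 150 bases before to 150 bases after the annotated transcript start. CACGTG reads the same on both strands, and the motif was chosen after the values of the genes were known. It was found for 388 of the 7874 tested genes with a window (4.93%). Among ribosome biogenesis genes it was found for 31 of 38 (81.6%), and for 25 of the 28 called higher. The motif did not follow direction across the growth lists below. It was found for 17 of 86 cytoplasmic ribosomal protein genes (19.8%), most of which had negative log2 fold changes. Among oxidative phosphorylation genes, of which 39 were called higher, 0 of 67 held the motif. Of all 918 genes called higher with a window 15.9% held it, or 13.6% without the ribosome biogenesis list, and of the 506 called lower 3.36%. Read the other way, 37.6% of the 388 genes with the motif were called higher and 4.38% lower (median 0.30), and 10.3% and 6.53% of the genes without it (median -0.03). Outside the ribosome biogenesis list, 33.9% of 357 genes with the motif were called higher. A match describes the letters of the window only. Myc itself had 286, 241 and 249 CPM in the mutant and 211, 200 and 206 CPM in the wild type (log2 fold change 0.33, SE 0.09, edgeR adjusted p = 0.046), and it was called in none of the 6 fits with a library left out, where its adjusted p was between 0.057 and 0.15.

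Cytoplasmic ribosomal proteins, the structural parts of the ribosome itself, had the opposite sign. Of 86 tested, 82 had a negative log2 fold change, 30 were called lower where 6.42% of all genes were, and the median was -0.46. The block fit called 67 lower. The number called lower ranged widely with a library left out, with 1 without mutant replicate 2 or wild-type replicate 2, 12, 13 and 17 without wild-type replicate 1, mutant replicate 3 and wild-type replicate 3, and 38 without mutant replicate 1. RpL15, of the large subunit, had 822, 752 and 631 CPM in the mutant and 1799, 1582 and 1566 CPM in the wild type (log2 fold change -1.17, SE 0.13, edgeR adjusted p = 0.0054), and was called in all 6 fits with a library left out. RpS5b, a paralogue of RpS5a that is enriched in the ovary, had 661, 520 and 444 CPM in the mutant and 1367, 1166 and 1038 CPM in the wild type (-1.14, SE 0.18, edgeR adjusted p = 0.012). RpS6, a target of the growth kinase S6K, had 1337, 1139 and 1012 CPM in the mutant and 2448, 2061 and 2019.8 CPM in the wild type (-0.90, SE 0.14, edgeR adjusted p = 0.012). No mutant library reached the lowest wild-type library in these genes. Without mutant replicate 2 the adjusted p was 0.064 for RpS5b and 0.069 for RpS6, and without wild-type replicate 2 it was 0.057 for both. The single gene of the list called higher was RpLP0-like, at 133, 117 and 113 CPM in the mutant and 68.8, 70.7 and 72.1 CPM in the wild type (0.78, SE 0.09, edgeR adjusted p = 0.0055). RpLP0-like is an assembly factor that resembles a ribosomal protein and not a part of the mature ribosome.

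Ribosomal protein mRNAs are known to start in a run of pyrimidines. The bases around the annotated start of 5 genes called lower are shown, from 10 bases before to 20 bases after it, with CTTTT in capitals. In RpS5b the first of 2 matches lies before the annotated start. In RpL15, RpS6, RpS28b and RpL30 the motif begins between bases 3 and 10 of the annotated transcript.
RpL15: ccaactcattgcttccttCTTTTggaatat
RpS5b: CTTTTaccgtttCTTTTtcatcctctttct
RpS6: cctcctatcggtCTTTTtcaaccctgcgct
RpS28b: ccgataaccgctcaacttcCTTTTtgcttg
RpL30: cgcctgttcttcctctttCTTTTgccattg
These windows of the Release 6 genome as held by RefSeq lie at chr3L:27267245-27267274 (plus strand) for RpL15, chr3R:14901544-14901573 (minus) for RpS5b, chrX:7901312-7901341 (minus) for RpS6, chrX:9554613-9554642 (plus) for RpS28b and chr2L:19009218-19009247 (minus) for RpL30. CTTTT was searched on the strand of the gene only, in this window, and was likewise chosen after the values were known. It was found for 44 of the 86 ribosomal protein genes (51.2%), for 20 of the 30 called lower, and for 455 of all 7874 genes (5.78%). Outside the ribosomal protein list, 7.06% of 411 genes with CTTTT were called lower and 11.2% higher, close to the 6.42% and 11.7% of all tested genes. Translation factors were mixed, with 11 of 47 called higher and 5 lower (median 0.14), and 4 of those 5 were eIF3 subunits.

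**Figure D3:**
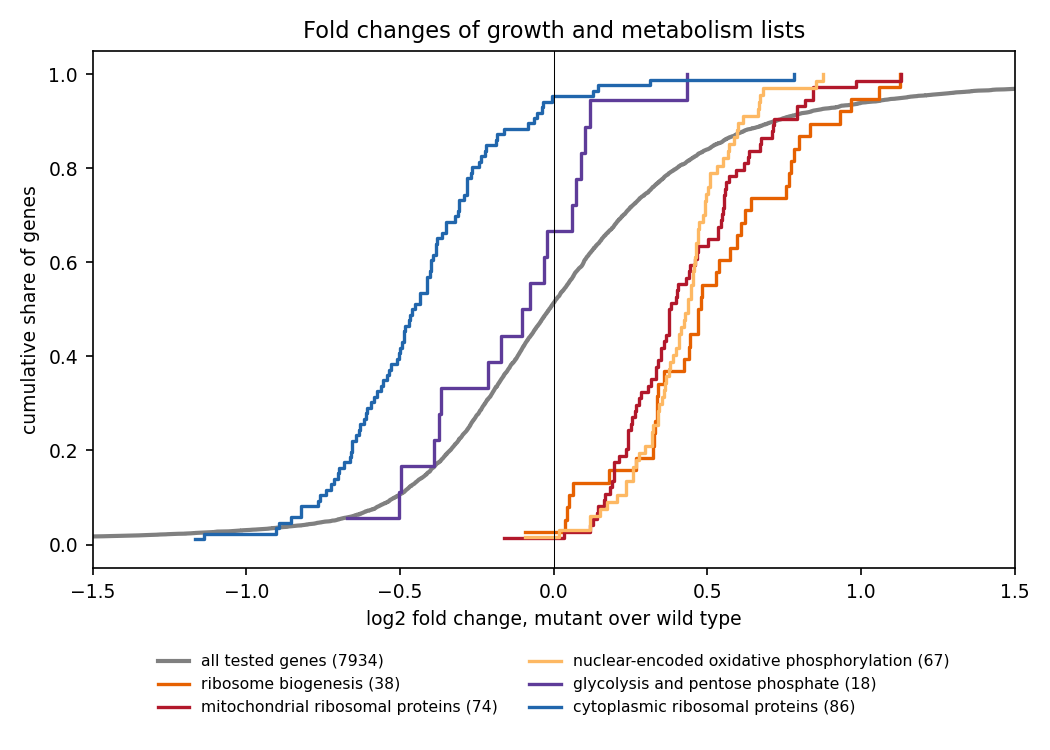
Cumulative share of genes (y axis) against log2 fold change of mutant over wild type (x axis) for 5 growth lists and for all 7934 tested genes, 1 step per gene. The curves of ribosome biogenesis, mitochondrial ribosomal proteins and oxidative phosphorylation lie right of that of all genes (medians 0.47, 0.38 and 0.44), and that of cytoplasmic ribosomal proteins lies left of it (median -0.46).

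Genes of mitochondria had positive log2 fold changes almost throughout. Of the 67 tested nuclear genes of oxidative phosphorylation, 66 had a positive value and 39 were called higher (53 with the block), with a median of 0.44. Of the 74 mitochondrial ribosomal proteins, 73 had a positive value and 33 were called higher, with a median of 0.38. All 26 genes of mitochondrial import and chaperones had a positive value and 14 were called higher (median 0.43). Without mutant replicate 2 or wild-type replicate 2 these counts were 0 and 0 for oxidative phosphorylation, 3 and 2 for mitochondrial ribosomal proteins, and 2 and 0 for import. Without the other libraries they were between 9 and 51, between 20 and 33, and between 5 and 15. ATPsynC, the ring subunit of ATP synthase, had 3304, 2712 and 2482 CPM in the mutant and 1638, 1560.3 and 1434 CPM in the wild type (log2 fold change 0.88, SE 0.13, edgeR adjusted p = 0.011). mRpS6, of the small mitochondrial subunit, had 45.6, 40.4 and 35.1 CPM in the mutant and 18.0, 18.7 and 18.6 CPM in the wild type (1.13, SE 0.12, edgeR adjusted p = 0.0054), and was called in all 6 fits. mEFTu1, the mitochondrial elongation factor, had 459, 369 and 356 CPM in the mutant and 222, 195 and 227 CPM in the wild type (0.88, SE 0.12, edgeR adjusted p = 0.0098). Both groups lay clear of each other. The adjusted p of ATPsynC was 0.059 and 0.065 without mutant and wild-type replicate 2, and that of mEFTu1 was 0.052 without wild-type replicate 2.

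Genes encoded in the mitochondrial genome had the same sign. Of 12 tested, 4 were called higher and the median was 0.56. mt:ND3, a complex I subunit, had 19.1, 18.8 and 16.4 CPM in the mutant and 5.19, 9.19 and 7.69 CPM in the wild type (log2 fold change 1.30, edgeR adjusted p = 0.020). Between 0 and 1 of these genes were called in 5 of the fits with a library left out and 7 without mutant replicate 3. Of the 18 tested TCA cycle genes, 6 were called higher and Idh lower (median 0.23). With a library left out the number called higher was between 0 and 7, with 0 without mutant replicate 2 or wild-type replicate 2.

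Glycolysis differed from the mitochondrial lists. Of 18 tested genes, 6 were called lower and the median was -0.09. Pgi, which starts the pathway after glucose phosphorylation, had 209, 259 and 264 CPM in the mutant and 351, 422 and 396 CPM in the wild type (log2 fold change -0.67, SE 0.12, edgeR adjusted p = 0.017). PyK, the last enzyme, had 628, 663 and 742 CPM in the mutant and 908, 1026 and 931 CPM in the wild type (-0.50, SE 0.10, edgeR adjusted p = 0.023). The other 4 were Gapdh1, Pfk, Pgk and Pglym78. None of the list was called without mutant replicate 2 or wild-type replicate 2, with Pgi at 0.063 and 0.074 and PyK at 0.10 in both, while 3 to 5 were called in the other 4 fits. PyK was also not called without mutant replicate 1 (0.054).

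Chaperones of newly made proteins were higher too. Of the 8 subunits of the CCT chaperonin, which folds actin and tubulin, 6 were called higher (median 0.37). Over the whole list of 33 tested heat shock proteins and chaperones 12 were called higher and 4 lower. No CCT subunit was called without mutant replicate 2 or wild-type replicate 2, 3 were called without mutant replicate 1, wild-type replicate 1 or wild-type replicate 3, and 5 without mutant replicate 3. The number called higher over the whole list was 1 without mutant replicate 2, 0 without wild-type replicate 2 and between 6 and 10 otherwise. Hsp26, a small heat shock protein, was among the lower ones, with 389, 474 and 475 CPM in the mutant and 648, 700.1 and 1189 CPM in the wild type (log2 fold change -0.92, edgeR adjusted p = 0.044), and it was called in 2 of the 6 fits with a library left out, those without wild-type replicate 1 or 3. Hsp70Bb and Hsp70Bc were called higher, at 1.51 and 1.72, but the Hsp70 copies are nearly identical and reads cannot be assigned to 1 of them with certainty. Of 33 aminoacyl-tRNA synthetases, 8 were called higher and 1 lower. With a library left out, between 1 and 5 were called higher and between 0 and 2 lower. AlaRS, which loads alanine, was the steadiest of them, with 474, 455 and 466 CPM in the mutant and 292, 307 and 294 CPM in the wild type (0.64, SE 0.07, edgeR adjusted p = 0.0049). Of 34 tested proteasome subunits 1 was called, Rpt3R, a testis-biased paralogue.

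**Figure D4:**
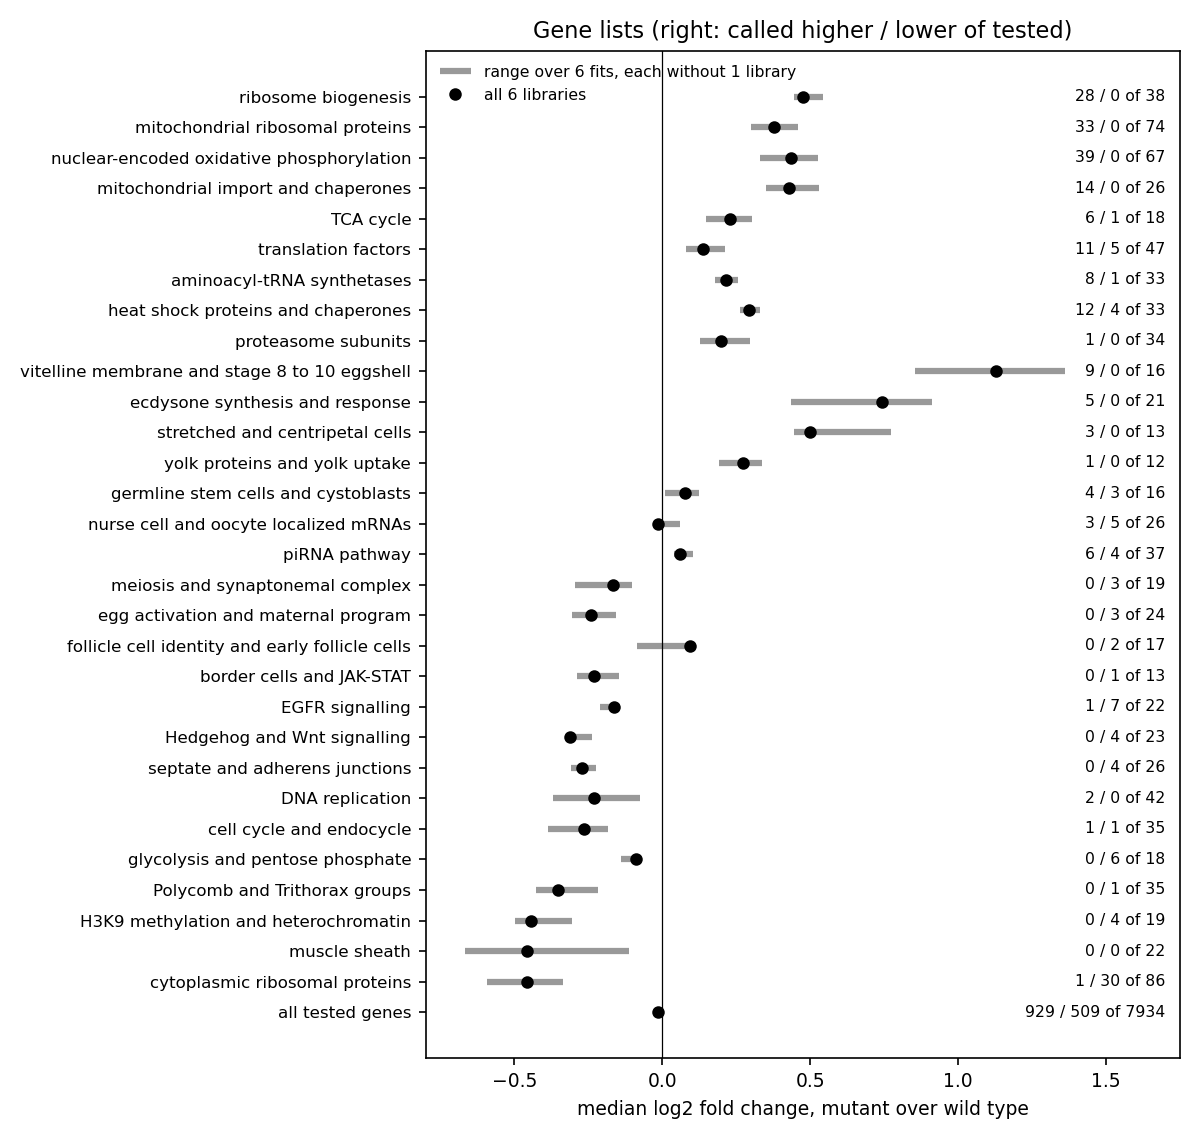
Median log2 fold change (mutant over wild type) of 30 gene lists and of all tested genes with all 6 libraries (points) and the range of the median over the 6 fits that each left out 1 library (grey bars), with the number called higher and lower of those tested at the right. Vitelline membrane genes had the highest median of those drawn (1.13), and H3K9 methylation, muscle sheath and cytoplasmic ribosomal protein genes the lowest (-0.44 to -0.46).

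Signalling lists differed in direction. Of the 22 tested genes of EGFR signalling, which patterns the follicle cells, aos was called higher and 7 were called lower (Cbl, Raf, Ras85D, csw, drk, rl and spi), with a median of -0.16. csw, the phosphatase that relays the receptor's signal, had between 138 and 157 CPM in the mutant and between 207 and 221 CPM in the wild type (log2 fold change -0.52, SE 0.08, edgeR adjusted p = 0.012). spi, an activating ligand, had 33.4, 36.4 and 38.9 CPM in the mutant and 63.3, 48.8 and 50.9 CPM in the wild type (-0.58, SE 0.12, edgeR adjusted p = 0.025). Without mutant replicate 2 the adjusted p of csw and spi was 0.060 and 0.097, and without wild-type replicate 2 it was 0.060 and 0.070. spi also lost its call without mutant replicate 1 (0.065). Of the 23 tested Hedgehog and Wnt genes, Wnt5, fz, nkd and smo were called lower (median -0.31), and the block fit called 10 lower and 2 higher. smo was not called with the block (0.056), and nkd in none of the 6 fits with a library left out. Wnt5, a ligand known from axon guidance, had 7.06, 9.67 and 11.2 CPM in the mutant and 24.0, 24.7 and 35.6 CPM in the wild type (-1.59, SE 0.24, edgeR adjusted p = 0.011, and 0.056 without mutant replicate 2). Of the 15 tested Hippo pathway genes, 12 had a negative value (median -0.26), Mer and kibra were called lower, at -0.52 and -0.36, and ex was called higher. kibra was called in none of the 6 fits with a library left out. ex, an upstream activator of the pathway, had 47.8, 36.3 and 34.0 CPM in the mutant and 16.1, 17.1 and 19.5 CPM in the wild type (1.16, SE 0.16, edgeR adjusted p = 0.0098, and 0.052 without wild-type replicate 2). Of 20 tested Notch pathway genes, Nle was called higher (0.94) and the block fit called 4 lower (median -0.10). Of 26 tested genes of septate and adherens junctions, 24 had a negative value and 4 were called lower (7 with the block).

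Stress and death genes were few. Of 29 tested genes of DNA damage and apoptosis, 3 were called higher (egr, PolQ and mre11) and grp lower. egr, the TNF ligand of the fly, had 27.8, 18.3 and 22.2 CPM in the mutant and 6.17, 8.18 and 6.89 CPM in the wild type (log2 fold change 1.68, SE 0.22, edgeR adjusted p = 0.0086), and was called in all 6 fits with a library left out. Cell cycle genes had 1 called in each direction of 35, and 15 called lower with the block.

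Genes of cuticle, trachea and other tissues also appeared. Of the 145 cuticle and chitin genes listed, 14 passed the filter and 5 of these were called higher. Cht2, a chitinase, had 113, 120 and 131 CPM in the mutant and 26.6, 23.1 and 41.6 CPM in the wild type (log2 fold change 1.99, SE 0.22, edgeR adjusted p = 0.0055), and was called in all 6 fits with a library left out. kkv, the chitin synthase, had 3.03, 1.95 and 2.07 CPM in the mutant and 0.122, 0.298 and 0.215 CPM in the wild type (3.42, SE 0.48, edgeR adjusted p = 0.0099). Cht2 and obst-B made up 2 of the 3 tested genes of the trachea list, whose sum was 131, 147 and 151 CPM in the mutant and 33.9, 31.1 and 45.0 CPM in the wild type. Most of each sum was Cht2, so the sum mainly gives the level of that gene. Cht2 also had a mean of 41.8 CPM in cultured ovarian somatic cells with control EGFP KD. The other 6 genes of that list did not pass the filter. Genes of the muscle of the ovarian sheath had sums of 868, 815 and 680 CPM in the mutant and 874, 773 and 898 CPM in the wild type. Of the 22 tested, 15 had a negative value, edgeR called none with or without the block, 4 had an unadjusted p under 0.05 with lower values, and DESeq2 called 1 lower (median -0.46). The sums of the fat body list were 1950, 1618 and 1318 CPM in the mutant and 1593, 1943 and 1195 CPM in the wild type.

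Of 10 tested genes of testis and sperm, 3 were called higher, among them topi and bol, which act in male meiosis. bol had 19.6, 15.0 and 15.3 CPM in the mutant and 6.54, 6.39 and 8.23 CPM in the wild type (log2 fold change 1.24, SE 0.21, edgeR adjusted p = 0.015, with 0.059 and 0.065 without mutant and wild-type replicate 2). Of 62 genes on this list, 52 did not pass the filter. Cell surface receptors of the immunoglobulin and leucine-rich repeat families had 4 of 27 called higher and 2 lower. Sema5c, a transmembrane semaphorin of follicle cells, had 46.1, 47.4 and 48.4 CPM in the mutant and 25.6, 20.4 and 25.0 CPM in the wild type (1.00, SE 0.11, edgeR adjusted p = 0.0057). dpr6, of a family that pairs neurons at synapses, had 7.70, 4.78 and 6.72 CPM in the mutant and 39.0, 28.6 and 61.2 CPM in the wild type (-2.74, SE 0.33, edgeR adjusted p = 0.0069). Both were called in all 6 fits with a library left out.

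Detoxification enzymes showed single large differences in place of a shared direction. Of 37 tested cytochrome P450 genes 1 was called in each direction. The higher one, Cyp9c1, had 25.7, 17.7 and 16.8 CPM in the mutant and between 2.86 and 3.34 CPM in the wild type (log2 fold change 2.66, SE 0.24, edgeR adjusted p = 0.0040). Of 46 tested glutathione S-transferases and other detoxification genes, 6 were called higher (13.0%) and 2 lower (4.35%), near the 11.7% and 6.42% of all genes. Ugt302C1, a glycosyltransferase, had 122, 105 and 121 CPM in the mutant and 49.9, 39.5 and 45.7 CPM in the wild type (1.37, SE 0.11, edgeR adjusted p = 0.0033). GstS1, the fly's sigma class glutathione S-transferase, had 74.8, 99.4 and 86.1 CPM in the mutant and 166, 178 and 194 CPM in the wild type (-1.05, SE 0.13, edgeR adjusted p = 0.0069). These 3 genes were called in all 6 fits with a library left out.

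The lists together held 1464 tested genes, of which 342 were called, and 1096 DEGs were in none of them. The tested genes were therefore also divided by features other than function. Where cultured ovarian somatic cells (OSCs, a follicle cell line, here with control EGFP KD) held a gene at or under 3 counts in both libraries, 9.49% of 390 genes were called higher and 3.59% lower in mutant ovary. Where OSCs had more than 100 CPM, 13.6% of 2102 were called higher and 8.09% lower. The share called lower also moved with the level in ovary, at 8.52% in the highest of 4 equal bins of genes by mean CPM and 2.57% in the lowest. The part of the level in ovary in the shares by OSC level was not tested.

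By chromosome, 21.0% of the 1519 tested genes on 3L and 19.2% of the 1900 on 3R were called, and 18.4% on X, 15.9% on 2R and 15.7% on 2L. On 3R 25.4% of 126 genes within 1 Mb of mod(mdg4) were called, 15.3% of 118 between 1 and 2 Mb, 20.7% of 445 between 2 and 5 Mb, and 18.4% of the 1210 beyond 5 Mb, with no steady order by distance. A mutant chromosome kept homozygous can carry linked differences, and the part of this in the calls on 3R was not tested. Short genes were called higher more often, at 15.8% in the shortest of 4 equal bins of deposited length and 8.57% in the longest, and long genes were called lower more often, at 9.48% in the longest bin against 4.79% in the shortest. Cytoplasmic ribosomal proteins, which are short, were called lower.

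**Figure D5:**
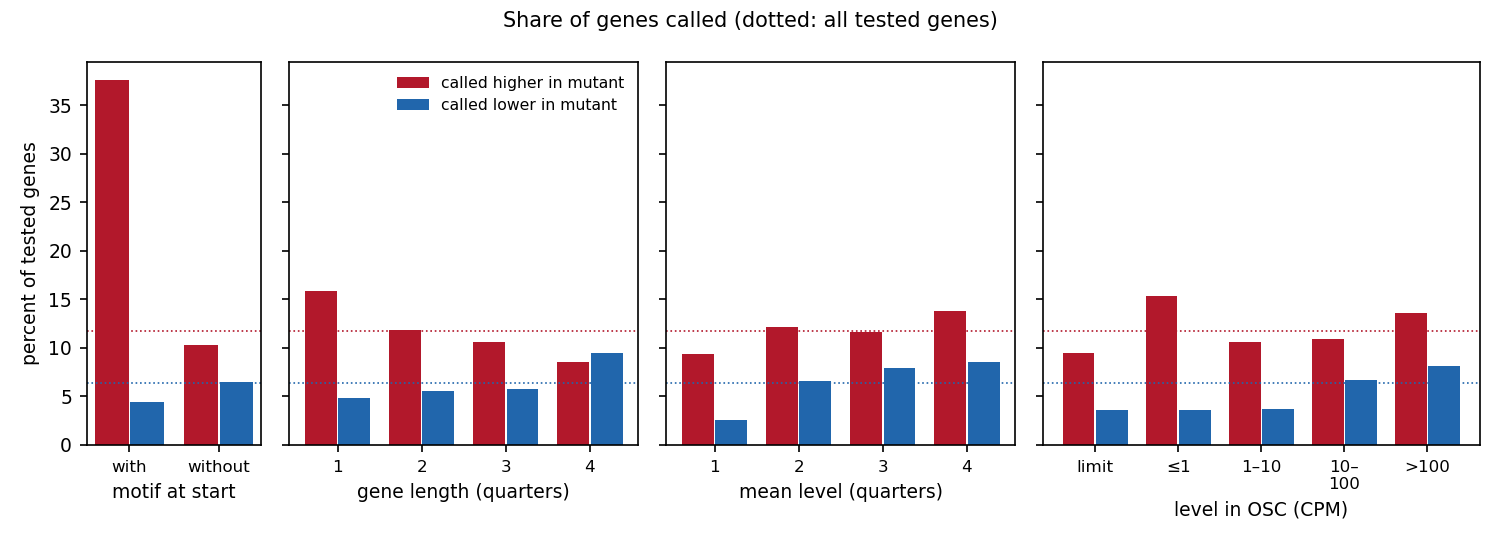
Percent of tested genes called higher and called lower in the mutant, from left to right by CACGTG near the transcript start, by 4 equal bins of gene length (1 is the shortest), by 4 equal bins of mean CPM (1 is the lowest) and by level in control OSCs, where limit stands for at most 3 counts in both libraries. Dotted lines mark the shares over all genes (11.7% and 6.42%), genes with CACGTG reached 37.6% called higher, and the longest bin had more genes called lower (9.48%) than higher (8.57%).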

How the data were processed

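Ovary mRNA was measured in 3 Mod(mdg4)-N mutant and 3 wild-type samples, and the level in OSCs was taken from 2 EGFP-KD libraries. The authors mapped read pairs from a stranded kit to dm6 with STAR and RSEM and deposited a table per library. It gives expected counts, which the authors did not scale for depth or length, TPM, which the authors' RSEM run scaled to a fixed sum in every library, and, in another deposited column, the length of each gene in bases. Versions, annotation release and strandedness setting are not given in the sources used here, so reads of overlapping genes may have been counted on either gene. RSEM divides reads that map to several genes.

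Expected counts were rounded to whole numbers. Genes above 1 CPM in at least 3 of the 6 libraries were tested with edgeR 4.0.16 in R 4.3.3 (TMM, quasi-likelihood F test in its older algorithm, group as the only term), and a Benjamini-Hochberg adjusted p under 0.05 was called. The standard error was the size of the log2 fold change divided by the square root of F. Libraries of a group differed by more than sampling noise (chi-square per degree of freedom between 25.9 and 87.4). On simulated data of this comparison, with 7846 genes fitted, 69.4% of genes changed 2-fold and 91.8% of those changed 4-fold were called, with 8 false calls. Deviations from the group mean correlated across genes at 0.214, 0.335 and 0.273 for the same-numbered mutant and wild-type libraries 1, 2 and 3, so the numbers were taken as pairs, and the fit with the number as a block is given where it changes a call. This pairing was read from the same counts that the block fit uses, so calls made only with the block rest on an assumption. No label says what the numbers share.

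Symbols and coordinates (1-based) came from the Ensembl annotation of Release 6, which matched 17710 of the 17807 genes. Gene lists (66) were written from textbook knowledge, and 57 of their entries matched no gene. The members, lists, tests and genes to name were chosen with earlier results of these data known. Named were mod(mdg4), the 10 non-overlapping DEGs of largest change in each direction with a mean of at least 5 CPM in the higher group, and up to 4 called members per list and direction or its defining markers, of which some are given only by name. Ribosome biogenesis genes and ribosomal proteins with printed windows, and eIF5, were added for those windows and for overlap. Alternatives were RLE size factors, the newer edgeR algorithm, DESeq2 1.42.0, limma-voom (limma 3.58.1), filterByExpr, no filter, the block, each library left out, and log2 of TPM plus 1 for list medians. A fit without scaling beyond library size was added after seeing the data. In fits with a library left out the filter was applied again, so that genes silent in a group could be tested in 3 of these 6 fits only.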

Additional observations from a re-analysis of the deposited data

How the results depend on the processing

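The call count of 1438 (929 higher and 509 lower) was between 1045 and 1494 with RLE size factors, the newer edgeR algorithm, limma-voom, filterByExpr, no filter or no scaling beyond library size. DESeq2 called 2365 (1058 lower) and the replicate block 2279 (1107 lower). Of the genes in the lists, 342 were called, against 557 by DESeq2 and 541 with the block. With 1 library left out, the total was between 173 and 1446, the genes called higher between 124 and 876, those called lower between 39 and 570, and the list members called between 32 and 338. The lowest values came without mutant replicate 2 or wild-type replicate 2, and the cause was not tested. Of 91 called genes among 96 refitted, 91 were called by DESeq2, 90 with RLE, 87 without scaling, 86 with the block, 83 by limma-voom and 82 without a filter, but 31 without mutant replicate 2 and 36 without wild-type replicate 2. With 1 library left out, Cp36 (0.26) was between -0.63 (without mutant replicate 3) and 1.12 (without wild-type replicate 3), with -0.33 without wild-type replicate 1. It was 1.45 with the replicate block and 2.97 by limma-voom, and was called in none of these. Of 66 list medians, 7 moved on the log2(TPM + 1) scale, 6 of them with the other sign. Scaling moved the median of all genes by at most -0.0089 on the log2 scale.

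In the simulated data most 4-fold but not all 2-fold changes were called with 3 samples per group. The simulation drew each library independently, without shared differences of stage or replicate number, and depth was not varied. Age, mating state and batch of the flies are not given, so these and the genotype cannot be told apart.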

Other observations

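Some lipid genes that the report does not describe were called, in both directions. Of 24 tested genes of lipid storage and synthesis, AcCoAS, Gpat4 and mdy were called higher and Agpat1, Hsl and SCAP lower, with a list median of 0.25. Each direction held 12.5% of the list, against 11.7% called higher and 6.42% called lower over all genes. No gene of the list was called without mutant replicate 2 or wild-type replicate 2. mdy, the enzyme that makes triacylglycerol in nurse cells, had 80.3, 48.7 and 43.9 CPM in the mutant and 27.5, 22.3 and 20.4 CPM in the wild type (log2 fold change 1.30, SE 0.25, edgeR adjusted p = 0.021). Hsl, a lipase that releases fatty acids, had 69.8, 87.0 and 95.5 CPM in the mutant and 122, 124 and 134 CPM in the wild type (-0.59, SE 0.13, edgeR adjusted p = 0.026). The groups did not overlap in either gene. Without mutant replicate 2 the adjusted p of mdy was 0.063, and without wild-type replicate 2 or 3 it was 0.088 and 0.056. For Hsl the adjusted p in these fits was 0.091, 0.088 and 0.057.

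Of the 28 tested genes of insulin, TOR and growth control, CrebA, Myc, crc and foxo were called higher and Akt, Gcn2 and PEK lower, with a median of -0.04. The block fit called 5 higher and 2 lower, and none was called without mutant replicate 2 or wild-type replicate 2. CrebA, which raises secretory capacity in follicle cells, had 56.5, 36.0 and 25.1 CPM in the mutant and 9.90, 19.3 and 13.6 CPM in the wild type (log2 fold change 1.46, SE 0.36, edgeR adjusted p = 0.037), and was called in 1 of the 6 fits with a library left out, that without mutant replicate 3. Its adjusted p in the other 5 was between 0.075 and 0.10. crc, the fly ATF4, was called higher, with 714, 533 and 515 CPM in the mutant and 421, 386 and 358 CPM in the wild type (0.60, SE 0.14, edgeR adjusted p = 0.035). The kinases PEK and Gcn2, which act upstream of ATF4, were lower, at -0.55 and -0.56, in 3 and 1 of the 6 fits with a library left out. Without wild-type replicate 2 the adjusted p was 0.12 for crc and 0.092 for PEK. crc also lost its call without wild-type replicate 1 (0.056) or 3 (0.089) and without mutant replicate 2 (0.092).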
